A study of Mus musculus with 8 samples.

Results

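The erythroid genes described here are 9 genes of the red cell programme: the transcription factor gene Klf1, the gene of the GATA1 cofactor FOG1 (Zfpm1), the receptor genes Epor and Tfrc, the band 3 anion exchanger gene Slc4a1, and the adult globin genes Hba-a1, Hba-a2, Hbb-bs and Hbb-bt. They were chosen by name and are 9 of 21757 protein-coding genes in the GENCODE annotation. A promoter loop of a gene was defined as a listed interaction with a 5 kb bin that holds the gene's canonical start site. By this definition 4 of the 9 genes (Klf1, Zfpm1, Tfrc and Epor) had a promoter loop in at least 1 of 4 lists, as did 10526 of all protein-coding genes.

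Interactions were measured by H3K27ac HiChIP. In it, crosslinked chromatin is digested, and pieces on nucleosomes with acetylated H3K27, a mark of active regulatory elements, are pulled down. Neighbouring pieces of DNA are then ligated so that they become 1 molecule. The cells were HPC-7, a mouse haematopoietic progenitor line kept in stem cell factor, stably transduced with the p30 or the p42 isoform of the transcription factor CEBPA. Each isoform was measured untreated (UT) and after 2 h of lipopolysaccharide (LPS), a bacterial ligand of TLR4, at 100 ng/mL, with 2 libraries for each of the 4 combinations. Where 4 values stand together, they follow the order p30 UT, p30 LPS, p42 UT, p42 LPS. p42 is the full-length protein, and p30 is the N-terminally shortened form that is made from mutated CEBPA alleles in leukaemia. The methods describe retrovirally transduced lines whose isoform is fused to ERT2 and enters the nucleus with 4-hydroxytamoxifen, and also lines with a tagged isoform made all the time. The paper names the ERT2 lines for its CEBPA ChIP-seq and describes the other lines for a repeat of the RNA-seq. Which of them gave these HiChIP libraries is not stated in the sources used here. No empty-vector line was analysed here. The labels name no more than 1 line per isoform, so that an effect of the isoform and a difference between lines cannot be told apart. The deposited data hold 1 list per group, so no spread between replicates was available, and each difference below compares pooled libraries and not conditions.

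In the erythroid lineage, GATA1 acts together with FOG1 and with KLF1, which binds CACCC boxes of erythroid promoters, to switch on genes for globins, haem synthesis and the red cell membrane. The erythropoietin receptor keeps erythroid progenitors alive through JAK2 and STAT5, and the transferrin receptor brings iron into the cell. The alpha globin genes are controlled by enhancers that lie mainly in introns of the neighbouring gene Nprl3, and the beta globin genes by a locus control region upstream of the cluster. CEBPA in turn is a factor of the granulocyte and monocyte lineages.

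The upstream 250 bases of the 4 genes with a loop are shown first, because they lead up to the start sites whose bins were used to count loops. The Epor start lies 127 bases from the upstream edge of its bin. Part of its window therefore lies in the next bin, from which no Epor loop was counted. They were read from GRCm39, the assembly behind mm39, 5′ to 3′ on the strand of the gene and up to the base before the canonical start. Capitals mark matches on either strand to 5 motifs: a GATA site (AGATAA or TGATAA), an E-box and GATA composite (the letters CTG upstream of a GATA core, with 9 bases of any kind standing between both), a CACCC box (CCNCNCCC), a C/EBP site (TTGCNNAA) and an AP-1 site (TGANTCA). Neighbouring CACCC matches overlap in places and then form 1 run of capitals.
Klf1 (chr8:85628307-85628556, plus strand): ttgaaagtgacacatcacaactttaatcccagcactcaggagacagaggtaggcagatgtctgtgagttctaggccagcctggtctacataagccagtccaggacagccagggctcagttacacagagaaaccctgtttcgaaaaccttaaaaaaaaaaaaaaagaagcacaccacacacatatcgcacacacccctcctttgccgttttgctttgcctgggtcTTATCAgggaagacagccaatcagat
Zfpm1 (chr8:123008555-123008804, plus strand): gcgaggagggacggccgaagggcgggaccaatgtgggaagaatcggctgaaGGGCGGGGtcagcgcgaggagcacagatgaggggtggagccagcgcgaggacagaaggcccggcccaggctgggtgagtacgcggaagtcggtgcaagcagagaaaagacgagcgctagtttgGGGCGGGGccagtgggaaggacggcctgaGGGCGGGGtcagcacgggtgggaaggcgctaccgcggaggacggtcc
Epor (chr9:21874874-21875123, minus strand): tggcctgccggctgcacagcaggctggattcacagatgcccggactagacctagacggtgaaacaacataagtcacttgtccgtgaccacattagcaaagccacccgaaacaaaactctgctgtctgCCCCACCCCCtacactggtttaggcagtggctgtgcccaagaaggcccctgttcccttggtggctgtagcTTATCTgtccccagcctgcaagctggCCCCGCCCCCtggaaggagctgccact
Tfrc (chr16:32427483-32427732, plus strand): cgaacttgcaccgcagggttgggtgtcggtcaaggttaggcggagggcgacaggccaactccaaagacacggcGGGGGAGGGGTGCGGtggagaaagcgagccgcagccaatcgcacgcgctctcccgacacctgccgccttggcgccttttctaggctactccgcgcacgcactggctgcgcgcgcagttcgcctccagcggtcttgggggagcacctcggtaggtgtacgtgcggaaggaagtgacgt

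AGATAA stood in 4 of the 9 upstream windows (Epor, Slc4a1, Hbb-bs and Hbb-bt), against 9.61% of 21757 windows of the same length. With TGATAA, which was added after the Klf1 sequence had been seen, 7 of 9 had a match, against 15.9%, and the further matches in Hba-a1 and Hba-a2 lie in 1 stretch that both genes share. In Klf1 the GATA match began 26 bases before the start and in Epor 53 bases before it. A match to the CACCC box pattern CCNCNCCC stood in 8 of 9, all except Klf1, against 48.8% of all windows. The pattern does not require the letters CACCC. The Zfpm1 matches read GGGCGGGG, and those of Hba-a1 and Hba-a2 read GGGAGAGG in the stretch that both genes share. The Klf1 window does hold the letters CACCC, but not the full pattern. The composite and the C/EBP site each had a match in 1 of 9, the window of Hbb-bs, against 1.86% and 9.34% of all windows. No window had an AP-1 match, which 6.18% of all windows hold. These matches describe letters, and no binding was measured in the lists.

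The alpha globin copies share sequence. The upstream windows of Hba-a1 and Hba-a2 held an identical run of 182 bases, at chr11:32233329-32233510 and chr11:32246146-32246327 on the plus strand, which is shown because reads from it alone cannot be given to 1 of the genes.
Hba-a1 and Hba-a2: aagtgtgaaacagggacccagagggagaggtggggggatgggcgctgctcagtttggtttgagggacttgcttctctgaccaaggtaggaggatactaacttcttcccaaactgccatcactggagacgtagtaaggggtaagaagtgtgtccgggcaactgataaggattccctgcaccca
Of the 4901 stretches of 100 bases in a start-site bin, 25.7% in the bin of Hba-a1 and 30.5% in that of Hba-a2 occurred again elsewhere in the genome. For Hbb-bs and Hbb-bt these shares were 17.8% and 17.9%, and for Slc4a1 1.33%. In the bins of Klf1, Zfpm1, Epor and Tfrc every stretch was unique.

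The 4 lists held 78591 to 158233 loops, from 14503330 to 18999991 modelled contacts, the number of contacts that the loop caller entered into its model. p42 UT had the longest list and p42 LPS the shortest. As a check of the cell type, 10 of 10 progenitor genes (Kit, Cd34, Gata2, Runx1, Lyl1, Erg, Fli1, Myb, Spi1 and Lmo2) had a promoter loop in every list. Of 6 genes of other cell types, 4 (Cd3e, Alb, Neurod1 and Krt5) had none in any list, and the muscle gene Myod1 had 2, 2, 1 and 0.

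Promoter loops were counted first, to ask which of the erythroid genes took part in active contacts and whether this differed between isoforms or after LPS. In p30, Klf1 had 2 promoter loops untreated and 5 after LPS, and in p42 it had 11 and 6. Zfpm1 had 12, 12, 12 and 7 promoter loops, and Tfrc had 7, 7, 14 and 8. Epor had 1 loop, in p42 UT. Slc4a1 and the globin genes Hba-a1, Hba-a2, Hbb-bs and Hbb-bt had 0 in every list.

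Thus 3, 3, 4 and 3 of the 9 genes had a promoter loop, set against 37.2%, 38.8%, 44.8% and 35.1% of all protein-coding genes. The share of the 9 genes was close to that background in each list. Among all genes with at least 1 loop in a list, Zfpm1 had more loops than 93.3%, 89.9%, 81.4% and 79.5%. Klf1 stood above 27.6%, 60.7%, 78.1% and 73.9%, and Tfrc above 79.0%, 73.7%, 86.4% and 83.8%.

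**Figure D1:**
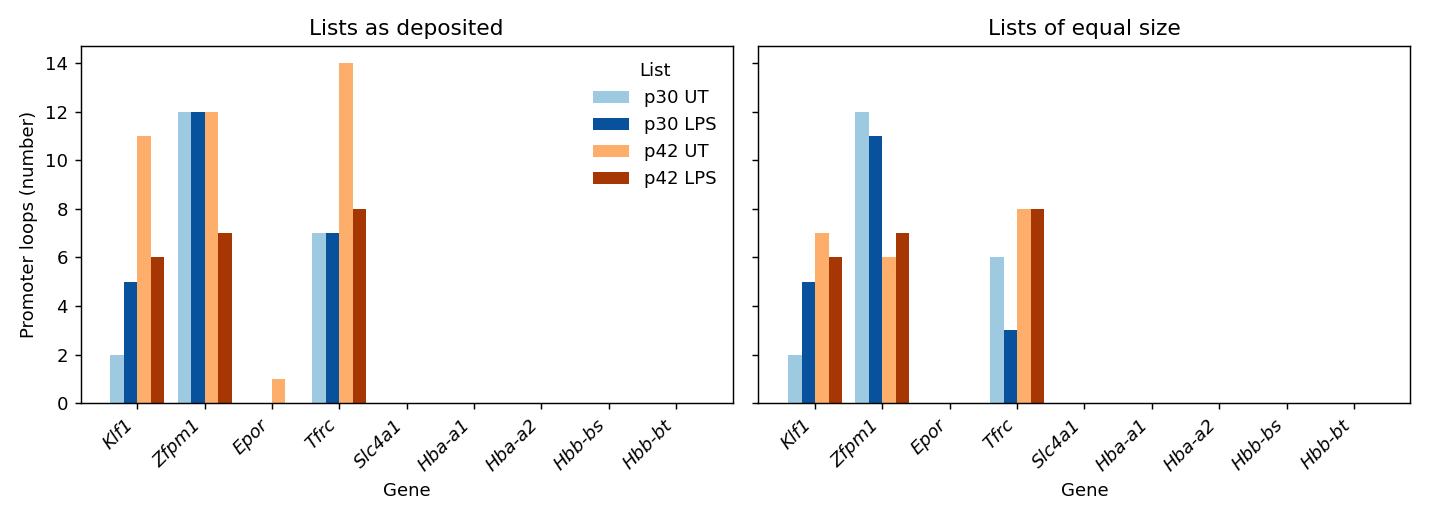
Promoter loops of each of the 9 genes (bars, number of loops) in the 4 lists, as deposited (left) and in lists limited to the 78591 loops with the smallest q-values (right). Klf1, Zfpm1 and Tfrc carried loops in every list, Epor carried 1 in p42 UT of the deposited lists, and the other 5 genes carried 0.

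Between isoforms, the untreated lists held 21 promoter loops of these genes in p30 and 38 in p42. Thus p42 held 64.4% of both (95% Wilson interval 51.7 to 75.4, counting error only). The interval takes loops as independent, although neighbouring bin pairs and loops found in both lists are not. With adjacent bin pairs merged, there were 8 and 12, or 60% in p42 (38.7 to 78.1). Of all loops in the deposited untreated lists 66.3% were in p42, and of all promoter loops 65.8%. Klf1, Tfrc and Epor had more loops in p42 UT than in p30 UT, as had 79% of 10526 genes, and none had fewer, against 7.96%. Zfpm1, at 12 in both, did not follow the longer list. After LPS the order of the list lengths was turned: 20.5% of the 10526 genes had more promoter loops in p42, and 51% had fewer. Klf1 (5 and 6) and Tfrc (7 and 8) were among the former and Zfpm1 (12 and 7) was among the latter.

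In lists of equal size the difference between p30 UT and p42 UT was smaller. There Klf1 had 2, 5, 7 and 6 loops, Zfpm1 12, 11, 6 and 7, Tfrc 6, 3, 8 and 8, and Epor 0 in all. The 9 genes together then had 20 loops in p30 UT and 21 in p42 UT, which put 51.2% in p42. In these lists Zfpm1 had more loops in p30 than in p42 under both treatments, and Klf1 and Tfrc had more in p42.

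Klf1 (ENSMUSG00000054191.11, chr8:85628557-85631934, plus strand) had 12 distinct loops over the 4 lists, and all of them ran upstream. Of these, 2 were found in all 4 lists. The bin 55 kb upstream, which holds the start of Calr, the gene of the endoplasmic reticulum chaperone calreticulin, had 21, 16, 24 and 21 contacts with the Klf1 bin, and these were 5.82, 5.33, 5.73 and 6.50 times the expected number. The bin 30 kb upstream, at the start of the meiotic gene Syce2, had 22, 18, 24 and 16 contacts, or 3.70, 3.87, 3.49 and 3.20 times the expected number. Both loops had similar values in the 4 lists, and the 11 loops of p42 UT included 9 that p30 UT did not list.

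Further partner bins of Klf1 in 2 lists held the starts of Farsa, a subunit gene of phenylalanyl-tRNA synthetase (24 and 15 contacts in p42 untreated and after LPS), Gadd45gip1 (13 and 15 in the p42 lists) and Lyl1. Lyl1, a basic helix-loop-helix factor gene of blood progenitors, starts 200 kb upstream of the Klf1 bin and had 9 contacts in p30 LPS and 10 in p42 UT, at 5.98 and 5.81 times the expected number. The weakest listed loops of that length had 8 contacts in each list, so these were close to the lowest number that could be listed. The bin 50 kb upstream, where no protein-coding gene starts, had 15 contacts in p30 LPS and 32 in p42 UT, the most of any Klf1 loop, and the bin 25 kb upstream, in the body of Syce2, had 30 and 19 in the p42 lists. Over all lists, 7 protein-coding genes started in a partner bin of Klf1, among them Dand5 (14 contacts in p42 UT).

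Zfpm1 (ENSMUSG00000049577.17, chr8:123008805-123065024, plus strand) had 15 distinct loops, of which 5 were in all 4 lists. All but 1 ran downstream, mainly into its own gene body and just past its end. The bin 50 kb downstream, near the 3′ end of the gene, had 29, 32, 31 and 27 contacts at 6.99, 10.8, 9.19 and 10.3 times the expected number. The bin at 35 kb had 34, 32, 26 and 18 contacts, and that at 55 kb had 18, 11, 30 and 18. Over expected, the contacts at 35 kb were 4.77, 7.18, 4.89 and 4.74, highest in p30 LPS, and those at 55 kb were 5.22, 4.26, 10.3 and 7.67, highest in p42 UT.

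Beyond the gene, the Zfpm1 start was joined to the bin at 65 kb in all 4 lists (17, 14, 16 and 17 contacts), and to the bin at 95 kb with the start of Zc3h18, a gene of nuclear RNA processing, in 3 lists (21 in p30 UT, 14 in p30 LPS and 13 in p42 UT). The bin at 70 kb was a partner in p30 LPS (25 contacts, 8.01 times the expected number), p42 UT (13) and p42 LPS (15). The single upstream partner, 330 kb away at the start of Banp, a gene of a chromatin protein, had 10 contacts in p30 LPS and 8 in p42 UT. In p42 LPS, the loops reached 70 kb at most, and in the other lists 155 to 330 kb. The number of loops between 2 bins of the Zfpm1 gene was 40, 36, 36 and 19.

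Tfrc (ENSMUSG00000022797.18, chr16:32427733-32451612, plus strand) had 16 distinct loops, of which 3 were in all 4 lists. Most of its partner bins lay 55 to 105 kb upstream, and no protein-coding gene starts in any of the 16. The bin 100 kb upstream, in the body of the acyltransferase gene Zdhhc19, had 22, 13, 37 and 20 contacts, at 12.7, 8.27, 20.1 and 12.3 times the expected number. Among all promoter loops of the same list, this ratio was higher than 97.6%, 89.8%, 99.5% and 97.4%. Of 14 distinct loops of this distant bin, the single protein-coding start they reached was that of Tfrc. The bins at 95 kb (14, 10, 20 and 18 contacts) and at 60 kb (15, 10, 28 and 13) were the other partners in all lists.

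Each of these 3 Tfrc loops had its highest contact count in p42 UT and its lowest in p30 LPS, the lists with the most and the fewest modelled contacts. Over expected, p30 LPS was again the lowest for each, while the loop at 95 kb was slightly higher in p42 LPS (10.8) than in p42 UT (10.7). The bin 10 kb upstream was a partner in p30 LPS (36 contacts) and in both p42 lists (50 and 42). Loops into the Tfrc gene itself were listed at 10 and 15 kb in p42 UT (55 and 28 contacts) and at 20 kb in p30 LPS (19). A bin in the body of Tnk2, a kinase gene, lay 60 kb downstream and was a partner in p30 LPS with 11 contacts.

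**Figure D2:**
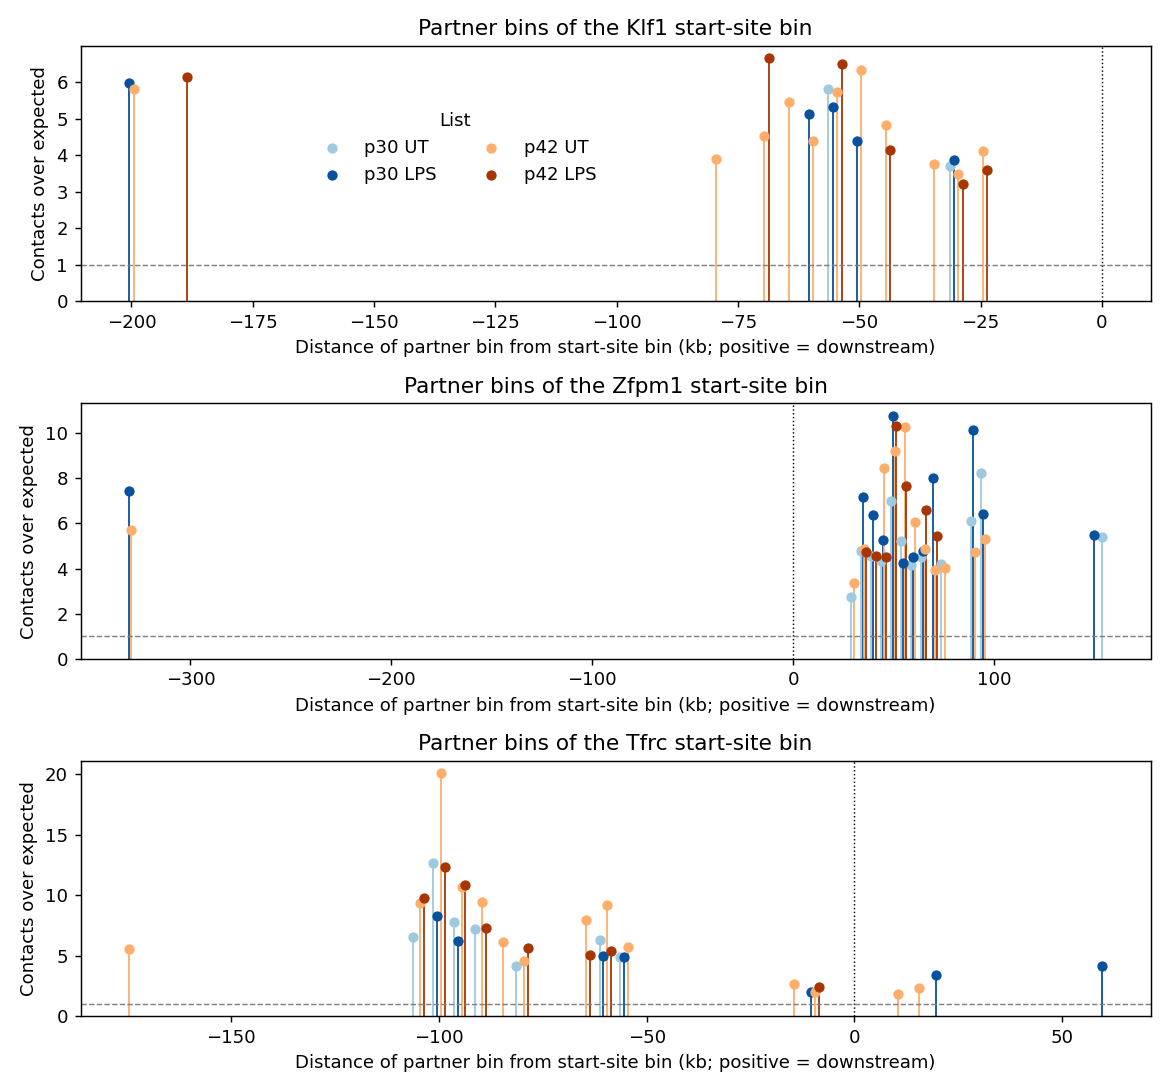
Contacts over expected (y axis, ratio) of every listed loop of the start-site bins of Klf1, Zfpm1 and Tfrc, by the distance of the partner bin (x axis, kb, in the direction of the gene). Points are 1 loop in 1 pooled list, the dashed line is a ratio of 1, and a missing point means that the pair was not listed. Partners of Klf1 and most of Tfrc lay upstream and all but 1 of Zfpm1 downstream, and the bin 100 kb upstream of Tfrc reached 20.1 in p42 UT.

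Of the partner bins found in all lists, 3 hold the composite of CTG and a GATA core, which resembles the arrangement that complexes of TAL1 and GATA factors are known to bind. It asks only for the letters GATA and not for the longer GATA site searched in the promoters. They are shown because they are the letters at the far end of shared loops, with CTG and GATA in capitals and 10 bases on each side.
Klf1, 55 kb upstream (chr8:85571501-85571536, minus strand): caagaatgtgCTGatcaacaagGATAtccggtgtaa
Tfrc, 60 kb upstream (chr16:32369544-32369579, minus strand): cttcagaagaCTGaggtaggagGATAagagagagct
Zfpm1, 45 kb downstream (chr8:123051575-123051610, minus strand): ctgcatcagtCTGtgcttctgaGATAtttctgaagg
The other 7 shared partner bins had no such match. Of 31321 peak bins listed in all lists, 40.2% had at least 1, and 3 of 10 lay below that share.

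Epor (ENSMUSG00000006235.8, chr9:21870193-21874873, minus strand) had 1 loop, to a bin 45 kb upstream in the body of Prkcsh, the gene of a glucosidase subunit. It had 13 contacts in p42 UT, 3.36 times the expected number, and was absent from the lists of equal size. In the other lists the Epor bin was in no loop, so that neither its contacts nor its coverage are known there. The weakest listed loops of 45 kb had 6, 8, 6 and 6 contacts. Loops of the neighbouring bin downstream, which holds the start of Swsap1, were listed in p30 UT (15 and 16 contacts), p30 LPS (15) and p42 UT (12 and 15).

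Slc4a1 (ENSMUSG00000006574.17, chr11:102239650-102256106, minus strand) had no loop at its start site, in a stretch that did hold loops. Within 20 kb of the gene, 4, 6, 6 and 2 loops were listed, and none had a bin at its start site. A bin inside the gene, next to the bin of its 3′ end, was joined in p30 UT to a bin 50 kb away in Rundc3a and Slc25a39 with 17 contacts, 3.85 times the expected number. A loop of 85 kb between chr11:102215001-102220000 and chr11:102300001-102305000 passed over the whole gene in all 4 lists, with 17, 18, 29 and 18 contacts. The bin with Bloodlinc, a long noncoding RNA gene next to Slc4a1, was a partner in both p42 lists, with 18 contacts in UT and 13 after LPS. At this locus too, p42 UT had the most contacts of the shared loop, and the other lists were alike.

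The alpha globin locus was examined in a window that reached 100 kb beyond Hba-a1 (ENSMUSG00000069919.9, chr11:32233511-32234504) and Hba-a2 (ENSMUSG00000069917.9, chr11:32246396-32247298). In it 6, 6, 14 and 4 loops were listed as deposited, and 6, 6, 3 and 4 in lists of equal size. None of the 5 bins with an alpha-type globin gene, Hba-x, Hbq1a and Hbq1b included, was in a loop. In the deposited lists, windows of the same span around 20359 start-site bins held a median of 6, 6, 13 and 5 loops. The window as a whole was thus not poor in loops there.

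One loop of this window was in all lists. It joined a bin in Rhbdf1 (chr11:32165001-32170000) with a bin in Nprl3 (chr11:32185001-32190000), 20 kb apart, with 42, 23, 30 and 25 contacts at 3.52 to 4.74 times the expected number. Another bin in Nprl3, 35 kb upstream of the Hba-a1 bin, was joined in p42 UT to the bin with the Nprl3 start (17 contacts) and in p30 UT to a bin 40 kb downstream of Hba-a1 (15 contacts, 6.82 times the expected number). This last loop was the only one that passed over the alpha globin genes. On the far side, loops started at or next to Sh3pxd2b, a gene of an adaptor protein of podosomes, and led away from the globin genes.

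**Figure D3:**
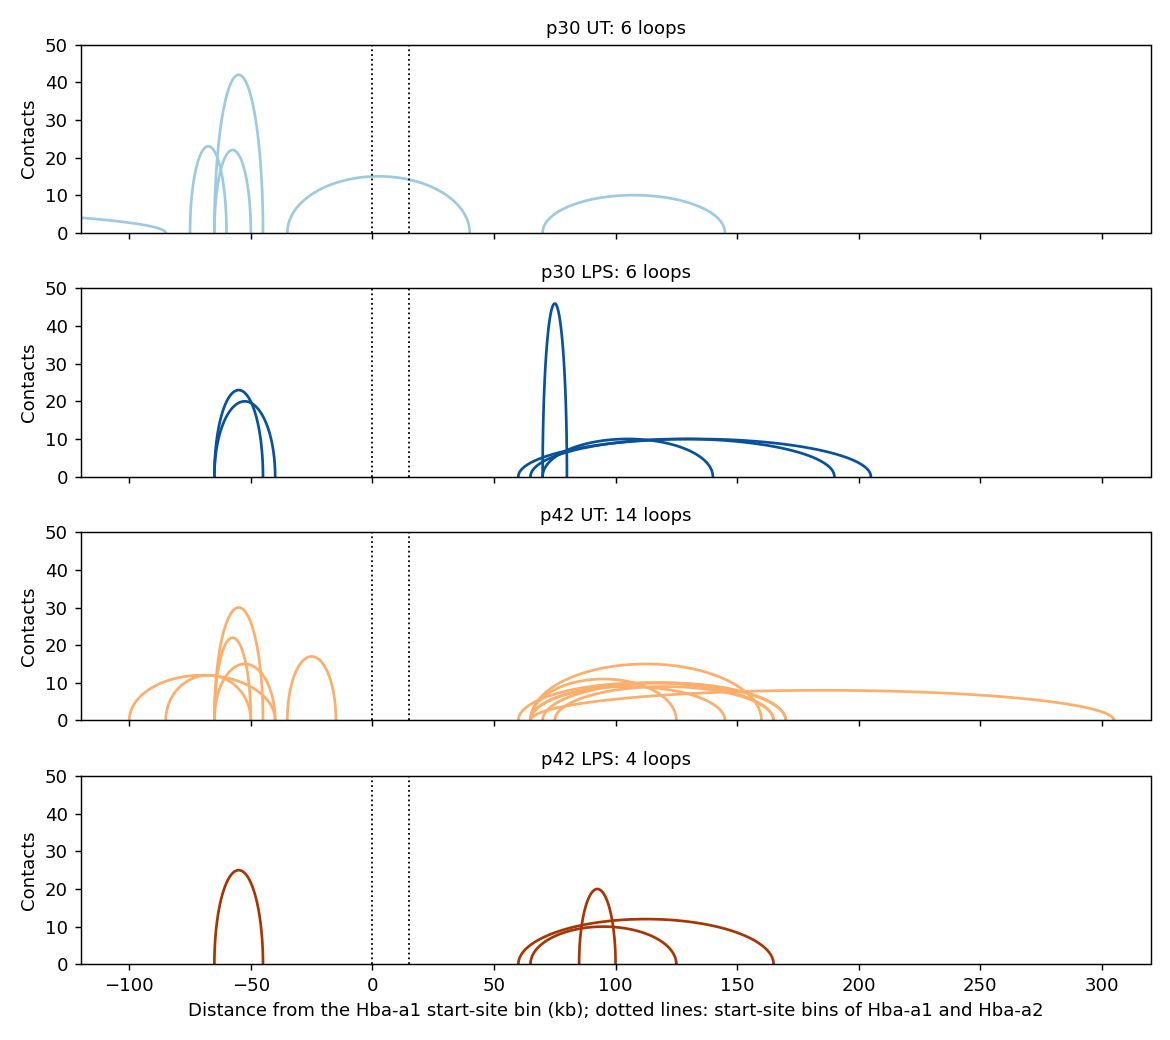
Loops of the alpha globin window in each list, drawn as arcs between both bins (x axis, kb from the Hba-a1 start-site bin; arc height, contacts). Dotted lines mark the start-site bins of Hba-a1 and Hba-a2. No arc ended there in any list, 1 arc passed over them in p30 UT, and the loop between Rhbdf1 and Nprl3 was seen in all lists. One loop in p30 UT runs beyond the left edge.

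At the beta globin locus, the same kind of window around Hbb-bs (ENSMUSG00000052305.8, chr7:103475739-103477169) and Hbb-bt (ENSMUSG00000073940.5, chr7:103461730-103463203) held 1 loop in p30 UT and 0 in the other lists. That loop joined a bin at the olfactory receptor gene Or52z1 with a bin 375 kb away and had 10 contacts, 8.15 times the expected number. None of the 7 bins with a beta-type globin gene was in a loop. Of the windows of that span around start-site bins, 31.5% held no loop in the list of p30 UT, and 28.6% to 32.9% held none in the others, and olfactory receptor genes made up 10 of the 15 protein-coding genes in the window. Since bins without a loop have no coverage in the lists, the lists give no H3K27ac level for the globin genes, and the part of repeated sequence in their absence from the loops was not tested.

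Contacts of the loops found in all lists were compared next, to ask whether the same contact was used more in 1 group. These were 10 loops of the 9 genes among 31032 loops, tested per loop with a two-sided exact binomial test against the modelled contacts and Benjamini-Hochberg adjustment over all 31032. For p42 against p30 in UT, 10.7% of all loops were called with more contacts in p42 and 0.126% with fewer. In LPS 0.267% had more and 2.35% had fewer. For LPS against UT, 3.89% had more and 0.0387% had fewer in p30, and 0.087% had more and 3.58% had fewer in p42. Of the 10 loops, 0 were called in any of the 4 comparisons. With the share from the caller's expected counts in place of modelled contacts, 0 were called as well. At an unadjusted p under 0.05, the exact binomial test picked 1 loop between isoforms in LPS (Zfpm1 at 35 kb) and 1 for LPS against UT in p42 (Zfpm1 at 45 kb), and 0 in the other comparisons. The lowest adjusted p of the exact binomial test among them was 0.311 and 0.279 between isoforms in UT and LPS, and 0.696 and 0.259 for LPS in p30 and p42.

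Summed over the 10 loops, there were 212, 173, 268 and 181 contacts. p42 held 55.8% of the contacts of both UT lists (95% Wilson interval 51.4 to 60.2), where modelled contacts gave 51.4%, and 51.1% of those of both LPS lists (45.9 to 56.3), where they gave 52.2%. LPS held 44.9% in p30 (40.04 to 49.9 against 44.7%) and 40.3% in p42 (35.9 to 44.9 against 45.5%). Against the caller's expected counts the reading changed for both p42 comparisons: the log2 ratio of p42 over p30 in UT was 0.42 (0.16 to 0.68), and that of LPS over UT in p42 was -0.19 (-0.46 to 0.079). The interval for LPS in p42 also included 0 against the median ratio of all loops, at -0.059 (-0.33 to 0.21), and over all member loops found in both p42 lists, at -0.20 (-0.40 to 0.0013). The median log2 difference of the 10 loops per modelled contact was 0.27 for p42 against p30 in UT, where that of all 31032 loops was 0.31, and -0.29 for LPS against UT in p42, where that of all loops was -0.24. For p42 against p30 in LPS it was 0.20, where that of all loops was -0.18, and for LPS against UT in p30 it was -0.03, where that of all loops was 0.25. The median of these loops thus lay close to that of all loops in the first pair of comparisons and had the opposite sign in the second. In that second pair, the log2 ratios of their summed contacts per modelled contact were -0.061 and 0.016. These had the same signs as the medians of all loops.

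By gene, the Tfrc loops had 51 contacts in p30 UT and 85 in p42 UT, a p42 share of 62.5% (54.1 to 70.2 against 51.4% by modelled contacts), and 33 and 51 in the LPS lists, a share of 60.7% (50.0 to 70.5 against 52.2%). Klf1 loops had 43 and 48 contacts in UT and 34 and 37 in LPS, and Zfpm1 loops 118 and 135 in UT and 106 and 93 in LPS, shares whose intervals included that of the modelled contacts. Over the loops of all 4 lists and against modelled contacts, Tfrc in UT was the isoform comparison by gene whose interval did not include that share, and its single loops did not pass the adjusted test. This depended on the reference: against the median ratio of all loops, the log2 ratio of Tfrc was 0.35 (-0.15 to 0.85) in UT and 0.68 (0.054 to 1.31) in LPS, and against the caller's expected counts that of Zfpm1 in UT was 0.50 (0.15 to 0.86). It also depended on the loops counted: over the Zfpm1 loops found in both LPS lists, with 155 contacts in p30 and 123 in p42, the log2 ratio against modelled contacts was -0.46 (-0.80 to -0.12).

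**Figure D4:**
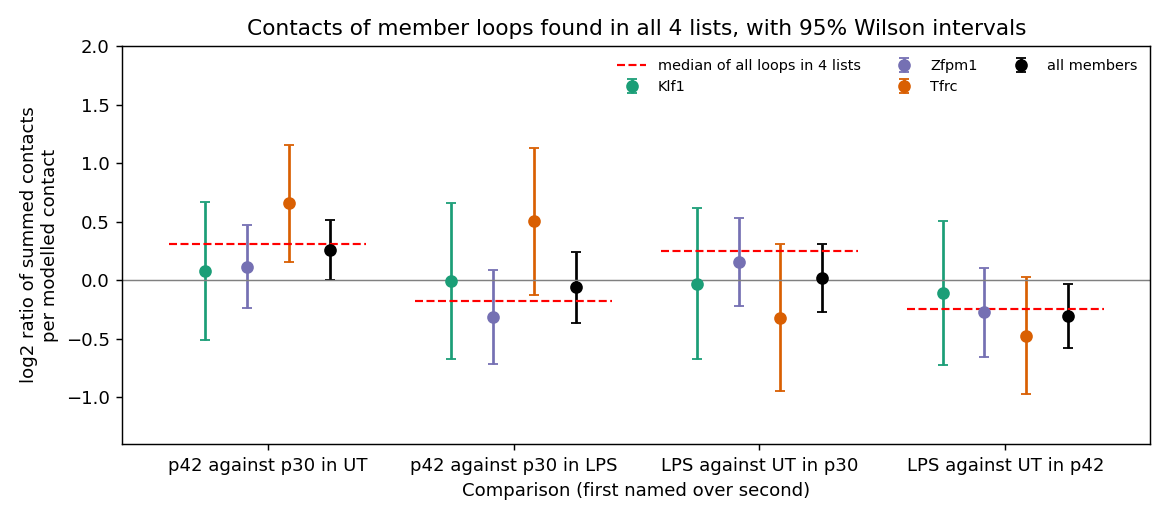
Log2 ratio of summed contacts per modelled contact (points) for loops found in all lists, with 95% Wilson intervals (bars, counting error only), for Klf1 (2 loops), Zfpm1 (5), Tfrc (3) and all 10 loops. Red dashes give the median of all 31032 loops. Tfrc in UT stood above 0 with an interval that included the red dash, and the sum of all 10 loops for LPS against UT in p42 stood below 0, near the red dash.

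Coverage, the number of reads in a bin, was then compared as a measure of H3K27ac at the start sites, each divided by the mean of all peak bins of its list. The Zfpm1 start-site bin had 6728, 4871, 5615 and 2640 reads, which was 2.80, 2.18, 1.93 and 1.36 times the mean of peak bins. Both p42 values were below both p30 values. Relative coverage in p30 was 1.45 times that in p42 in UT and 1.60 times in LPS, and 1.70% of 6648 and 1.65% of 6015 start-site peak bins had a lower ratio of p42 to p30 than Zfpm1. Klf1 (1.49, 1.38, 1.63 and 1.29) and Tfrc (1.32, 1.28, 1.54 and 1.25) had their highest relative coverage in p42 UT and their lowest in p42 LPS. Epor had 1.05 in p42 UT.

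Among all start-site peak bins, 3.84% were more than 1.5-fold higher and 1.28% more than 1.5-fold lower in p42 than in p30 in UT, and 1.75% were higher and 3.79% lower in LPS. For LPS against UT, 1.97% were higher and 0.321% lower in p30, and 0.699% were higher and 1.12% lower in p42. Of Klf1, Zfpm1 and Tfrc, only Zfpm1 after LPS, lower in p42, passed that fold. For LPS against UT, the log2 difference of Zfpm1 was -0.36 in p30 and -0.50 in p42, where the median of all start-site peak bins was 0.04 and -0.14. The corresponding values were -0.11 and -0.34 for Klf1 and -0.04 and -0.30 for Tfrc. No replicate spread stands behind these values.

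The lower coverage of Zfpm1 in p42 extended over the gene. All 13 bins of Zfpm1 were below p30 in p42 in UT, by 0.42 to 0.80 on the log2 scale, and all 13 were below it in LPS, by 0.13 to 0.68. Their median relative coverage was 2.01, 1.53, 1.28 and 1.23. The median log2 difference of all peak bins listed in both lists was -0.03 in UT and 0.00 in LPS. Past the gene, p42 was also below p30 of the same treatment at 65 kb (2.53, 2.64, 1.82 and 1.73), 70 kb (3.24, 4.39, 2.38 and 2.70) and 75 kb (1.96, 2.33, 1.34 and 1.55), and at 70 kb both LPS lists were above their untreated list. At 95 kb, at Zc3h18, the values were 1.78, 2.02, 1.72 and 1.64.

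At the Klf1 locus, the bin 50 kb upstream had the highest coverage of the partner bins within 80 kb in every list, with 2.88, 3.30, 4.28 and 3.33. Of the 8 partner bins found in at least 2 lists, several of them neighbours, 7 were higher in p42 than in p30 in UT and 3 in LPS. Their median log2 difference was 0.22 in UT and -0.03 in LPS. Among all peak bins listed in both lists, 78.6% in UT and 45.6% in LPS lay below that median. The Tfrc partner at 100 kb had a low coverage of 0.71, 0.60, 0.60 and 0.66, below the mean of peak bins in every list. Its contacts over expected were the highest of these genes' loops in every list except p30 LPS. The expected number itself depends on coverage. Without it, the 22, 13, 37 and 20 contacts stood beside medians of 13, 12, 13 and 12 for all listed loops of 100 kb. The partner at 60 kb had 0.90, 0.75, 1.39 and 1.26, both p42 values above both p30 values.

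**Figure D5:**
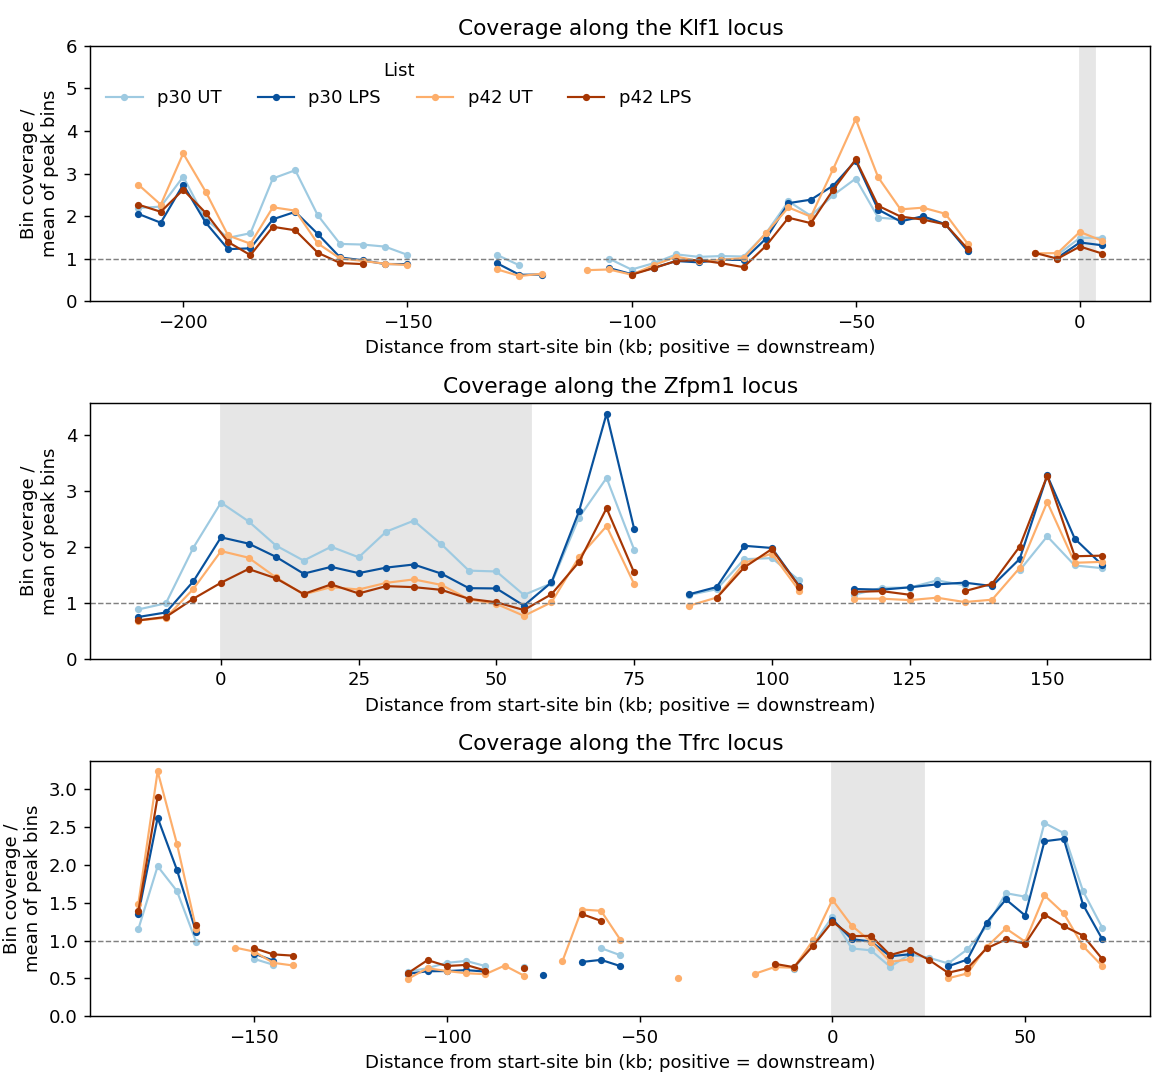
Bin coverage divided by the mean of peak bins (y axis, ratio) along the loci of Klf1, Zfpm1 and Tfrc (x axis, kb from the start-site bin in the direction of the gene) in the 4 pooled lists. Grey areas mark the genes and gaps are bins that are in no loop of that list. In all 13 bins of Zfpm1 the p30 line lies above the p42 line of the same treatment.

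The rest of the erythroid programme was described by a list of 54 genes in 6 roles. Of these, 24, 25, 30 and 22 had a promoter loop, or 44.4%, 46.3%, 55.6% and 40.7%, beside the shares of all genes given above. A loop in every list was seen for 18 of the 54 genes, or 33.3%, beside 29.1% of all protein-coding genes. No list held a loop for 23 of them, or 42.6%, beside 51.6% of all. The median number of loops per gene was 0, 0, 1 and 0, and over all genes it was 0 in each list.

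The roles are described by their counts, without a test, and 51.6% of all protein-coding genes had no promoter loop in any list. Erythropoietin signalling genes had them in 6 of 6 in every list, led by Bcl2l1, an anti-apoptotic gene (27, 27, 28 and 25 loops), and Cish, a feedback inhibitor of cytokine receptors (9, 14, 11 and 13). Of 10 erythroid transcription factor genes, 9, 9, 9 and 7 had a loop, led by Nfe2 (16, 16, 21 and 20) and Lmo2 (13, 12, 18 and 15), and Sox6 had none. Haem synthesis genes had one in 4, 5, 5 and 4 of 8, led by Ppox (5, 10, 11 and 3) and Alad (5, 5, 7 and 5), and 2 had none in any list.

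Among the 6 genes of iron uptake and transfer, 1, 3, 5 and 3 had a loop, led by the ferritin heavy chain gene Fth1 (9, 9, 12 and 11) and the mitochondrial transporter gene Abcb10 (0, 3, 5 and 2). Of 17 genes of the red cell membrane and cytoskeleton, 13 had no loop in any list. The 2 with the most were Epb41, which encodes protein 4.1 (5, 6, 6 and 4), and the carbonic anhydrase gene Car2 (1, 0, 5 and 2). Of 7 further globin and chaperone genes, 6 had none, and Ahsp, which encodes the chaperone of alpha globin, had 1 loop in p42 UT.

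Genes elsewhere with the most similar numbers of promoter loops over the 4 lists were found by the sum of absolute differences. For Tfrc, Arl6ip1 had the same 7, 7, 14 and 8 loops, followed by Serinc3 (sum 1) and Pif1, 1 of 7 genes at sum 2. For Zfpm1 the nearest was Rasal3 with 12, 12, 13 and 8 loops (sum 2), followed by Rhof and Taok2, which are among 3 genes at sum 3. For Klf1, Lpgat1, Ino80b and Hibch each had 3, 5, 11 and 6 loops and are among 4 genes at sum 1. Genes with equal sums were ordered by how near their ratio of start-bin coverage between p42 UT and p30 UT was to that of the member. For Epor, 522 genes had the same numbers, so none was singled out.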

How the data were processed

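H3K27ac HiChIP of 8 libraries had been mapped by the authors to mm39 with BWA-MEM (BWA 0.7.17 per the submitters' processing notes), filtered for ligation events and PCR duplicates with pairtools, and called with FitHiChIP. Neither the pooling of replicates nor the handling of reads that map to several places is given in the sources used here. The authors deposited 4 lists of loops in 5 kb bins at q-values under 0.01, 1 per group, and only pairs below that q-value are listed. The deposited values are the contact count of each bin pair and the read count (coverage) of each bin, both raw, the expected count from the caller's model of distance and coverage, the contact probability as a fraction, the coverage bias as a ratio to the mean of peak or other bins, and a peak flag.

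From these, modelled contacts were computed by dividing the expected count by the probability, and the mean of peak bins by dividing coverage by bias. Canonical start sites came from GENCODE M39 on GRCm39. Loops were compared by identical bins, contacts by two-sided exact binomial tests with Benjamini-Hochberg adjustment, and shares by 95% Wilson intervals, which cover counting error only. All other values are descriptions. The tests were checked on simulated data. Python 3.11.15 was used with scipy 1.17.1 and pandas 2.3.3.

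The members and gene lists were chosen with earlier results of these data known. Named were the 9 genes, genes that start in partner bins of at least 2 lists, the 2 genes with the most loops of each role, and the 3 with the most similar loop numbers. Some genes that these rules select are not reported here. Dand5, genes named for their body in a partner bin, and loops at Slc4a1, Epor and the globin windows were chosen after their values were seen. Alternatives were stricter q-values, lists of equal size, at least 10 contacts, at least 20 kb, merged bin pairs, wider start sites or windows, and other nulls.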

Additional observations from a re-analysis of the deposited data

Results flagged for a closer look

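For 2 measures, the change with LPS had one sign in p30 and the other sign in p42. The promoter loops of Klf1 went from 2 to 5 in p30, a log2 change of 1.32, and from 11 to 6 in p42, a log2 change of -0.87, so that the change in p42 minus that in p30 was -2.20. With equally long lists Klf1 had 2, 5, 7 and 6 loops in p30 UT, p30 LPS, p42 UT, p42 LPS. The opposite signs were lost for Klf1 with adjacent bin pairs merged (2, 3, 3 and 4, higher with LPS in both) and at q-values under 1e-05 (1, 0, 5 and 2, lower with LPS in both). The contacts of the 5 Zfpm1 loops found in all lists changed by 0.16 on the log2 scale per modelled contact in p30 and by -0.27 in p42, a difference of -0.43. Against the median ratio of all loops both Zfpm1 values were negative (-0.097 and -0.031). Each list pools its replicates, and neither difference was tested.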

How the results depend on the processing

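No paired analysis was possible because each group has 1 pooled list, in which the replicates cannot be told apart. For the same reason no replicate could be left out. Of the alternatives to the main comparisons, 146 stayed within their limits, 10 moved and 1 turned. With lists of equal size, p42 held 51.2% of the promoter loops of both UT lists (64.4% as deposited), and LPS held 50% of those of both p42 lists (35.6% as deposited). For the alpha globin window, p42 held 33.3% in UT with lists of equal size and also at q-values under 1e-05 (70% as deposited), and LPS held 57.1% in p42 with lists of equal size, which turned the direction, and 50% at q-values under 1e-05 (22.2% as deposited). These shares rest on 1 to 6 loops per list. The single loop of the beta globin window became 0 at q-values under 1e-05 or with both bins in the window, and 4 within 200 kb. At q-values under 1e-05, 14 genes of the erythroid list kept a promoter loop in p42 LPS (22 as deposited). Against the median contact ratio of all loops, the contacts of member loops for p42 against p30 in UT had a log2 ratio of -0.052 (0.26 against modelled contacts). The loop of Epor was lost at q-values under 0.001. In lists of equal size fewer loops of the longer lists were counted; the cause of the other changes was not tested. Contacts of 8 to 55 per loop limit what single loops can show.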
